A study of Mus musculus with 7 samples.

Results

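A set of 1132 distal H3K27ac peaks held their signal for the first 12 h of NeuroD1 expression in mouse embryonic stem cells and lost part of it by 48 h. The peaks were selected on the read counts of all 6 libraries, after each library was scaled by its total in the peaks to the mean total (scaled counts). Scaled counts give each peak's share of the reads in peaks, so levels held or lost are relative to the other peaks. A peak was a member when it lay outside the 2 kb on either side of every protein-coding transcription start site (TSS), held a mean of at least 20 raw reads and had a lowest 0 h or 12 h value at least 1.3 times its higher 48 h value. In addition, the 0 h and 12 h means each had to be at least 0.8 times the other. The 1132 members were 3.99% of the 28356 distal peaks that passed the count minimum (eligible distal peaks) and 1.69% of all 66841 merged peaks. Of the 1761 eligible peaks that met the 1.3-fold margin, 304 were left out because the 0 h mean was under 0.8 times the 12 h mean, and 325 because the 12 h mean was under 0.8 times the 0 h mean.

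The cells were the A2Lox embryonic stem cell line, which carried a doxycycline-inducible, HA-tagged coding sequence of murine NeuroD1 in every group, the uninduced one included. Cells at 0 h received no doxycycline, and cells at 12 h and 48 h had been given 500 ng per ml of it for that time. All were grown on gelatin without feeders. The paper gives stem cell medium with serum and LIF for culture and does not state a separate medium for the induction. H3K27ac ChIP-seq was made in 2 libraries per time point (R1 and R2), of a single line and with no group that received doxycycline without the transgene, so drug, time in culture and NeuroD1 cannot be told apart. The labels do not say whether R1 and R2 came from separate cultures, and the spread between them may be technical. Library totals ranged from 6283103 to 8112895 reads in the merged peaks. Stem cell identity was checked on promoter peaks at 0 h. Those of Pou5f1, Sox2, Nanog, Zfp42, Esrrb, Tdgf1 and Dppa5a lay at or above the 99.4th percentile of all promoter peaks and that of Klf4 at the 72.4th, while 6 of 7 feeder fibroblast markers had no promoter peak.

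Acetylation of lysine 27 of histone H3 marks active promoters and enhancers. It is written mainly by the acetyltransferases p300 and CBP, which transcription factors recruit, and it is lost when those factors leave or when deacetylases act. In embryonic stem cells, enhancers of genes such as Nanog, Sox2, Klf5 and Esrrb are held by shared sets of pluripotency factors and often lie in broad acetylated stretches. NeuroD1 is a proneural bHLH factor that binds E-boxes and drives neuronal differentiation.

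The sequences at the peaks came from the mm10 reference (GRCm38), and were read for motifs that the choice of peaks had not used. The first set shows 300 bases around the centre of the members with the steepest and the strongest signal, to give a view of what these regions are. Tmem233 and Tril are the nearest genes of the 2 members with the largest falls, and the Esrrb and Tfcp2l1 peaks held the most reads among members nearest to genes of the pluripotency and signalling lists described below. Capitals mark any match to 2 motifs, the E-box CAGATG of the NeuroD1 type and the site CAAGGTCA bound by Esrrb and related orphan nuclear receptors, on either strand.
Tmem233, chr5:116141510-116141809, forward strand: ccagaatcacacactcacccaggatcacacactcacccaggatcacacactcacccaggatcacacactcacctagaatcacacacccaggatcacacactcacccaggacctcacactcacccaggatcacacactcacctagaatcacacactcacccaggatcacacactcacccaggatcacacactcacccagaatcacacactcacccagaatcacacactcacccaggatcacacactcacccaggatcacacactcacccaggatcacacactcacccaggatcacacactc
Tril, chr6:53800048-53800347, forward strand: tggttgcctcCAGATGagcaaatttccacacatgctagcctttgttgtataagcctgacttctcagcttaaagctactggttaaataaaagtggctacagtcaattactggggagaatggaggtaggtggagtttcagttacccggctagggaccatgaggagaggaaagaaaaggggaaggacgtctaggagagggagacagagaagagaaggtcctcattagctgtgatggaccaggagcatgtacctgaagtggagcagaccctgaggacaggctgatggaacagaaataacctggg
Esrrb, chr12:86505199-86505498, forward strand: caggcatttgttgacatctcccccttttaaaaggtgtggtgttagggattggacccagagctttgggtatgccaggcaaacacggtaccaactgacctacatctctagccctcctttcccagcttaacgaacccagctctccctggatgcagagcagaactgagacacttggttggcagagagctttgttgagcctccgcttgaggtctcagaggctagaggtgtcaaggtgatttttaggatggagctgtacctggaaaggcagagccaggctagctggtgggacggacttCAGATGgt
Tfcp2l1, chr1:118646589-118646888, forward strand: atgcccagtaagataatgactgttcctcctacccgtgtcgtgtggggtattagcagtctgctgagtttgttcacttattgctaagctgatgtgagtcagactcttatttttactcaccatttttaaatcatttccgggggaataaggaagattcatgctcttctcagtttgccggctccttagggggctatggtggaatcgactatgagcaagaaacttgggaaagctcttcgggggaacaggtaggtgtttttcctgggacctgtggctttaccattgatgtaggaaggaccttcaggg

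The centre of the Tmem233 member was a tandem array of short, nearly identical units, so its reads are hard to place within the array. The centres of the other 3 were not made of such an array, and none of these 4 windows held an Esrrb site.

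The second set shows the Esrrb site CAAGGTCA where it occurred in members nearest to pluripotency and signalling genes. It was found in 11 of the 48 such members over the whole peak, 2 of them among 4 members whose sequences are not shown here. Over the whole peak 20.2% of all members and 11.2% of eligible distal peaks held it, so the site was not particular to these genes. Windows of 40 bases around it are printed for the 8 genes of the other 9 members, with the Esrrb site in capitals and the strand turned so that it reads in the same direction. These windows were chosen after the motif shares were known.
Nanog, chr6:122695153-122695192, forward strand: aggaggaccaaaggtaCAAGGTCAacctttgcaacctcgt
Sox2, chr3:34744409-34744448, reverse strand: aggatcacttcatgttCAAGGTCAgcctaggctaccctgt
Klf5, chr14:99325736-99325775, reverse strand: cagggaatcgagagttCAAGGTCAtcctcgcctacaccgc
Klf5, chr14:99336441-99336480, reverse strand: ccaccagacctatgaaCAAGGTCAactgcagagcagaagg
Esrrb, chr12:86503536-86503575, forward strand: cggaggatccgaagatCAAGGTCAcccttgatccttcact
Esrrb, chr12:86508878-86508917, reverse strand: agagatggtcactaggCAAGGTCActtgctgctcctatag
Tbx3, chr5:119587026-119587065, reverse strand: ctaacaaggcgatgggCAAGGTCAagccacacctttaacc
Dppa3, chr6:122665051-122665090, forward strand: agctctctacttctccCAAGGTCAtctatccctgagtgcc
Pim1, chr17:29476023-29476062, reverse strand: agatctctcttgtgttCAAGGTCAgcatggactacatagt
Dusp5, chr19:53555150-53555189, forward strand: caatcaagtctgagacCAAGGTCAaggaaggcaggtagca

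The Esrrb member, within an intron of Esrrb itself, held 6 Esrrb sites over its width of 10.5 kb, of which 2 are printed. The nearest of the 14 Esrrb sites in those 9 members to its peak centre lay 225 bases away, at Tbx3.

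The third set shows a word that many members shared. The 16-base word most common among the central 300 bases of the members was AGATGGCGACCGCTGC, found on either strand in 169 members (14.9%), and it occurs 8468 times in the mm10 chromosomes. The windows below hold it in capitals with 12 bases on either side, in 3 of the strongest members that hold it. The genes are the nearest ones.
Fsd1l, chr4:53669029-53669068, reverse strand: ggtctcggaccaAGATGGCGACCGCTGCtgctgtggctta
Tcte2, chr17:13844856-13844895, forward strand: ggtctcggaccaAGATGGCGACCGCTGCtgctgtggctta
Gdi2, chr13:3110240-3110279, reverse strand: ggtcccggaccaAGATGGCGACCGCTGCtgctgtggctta

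The Fsd1l and Tcte2 windows differed at 0 of 40 bases, and the Gdi2 window differed from them at 1. These members were copies of 1 interspersed repeat on 20 chromosomes, with a median of 100% soft-masked (repeat-annotated) bases, 65% GC content and 18 CpG dinucleotides in the central 300 bases. Reads from such copies can be assigned to the wrong copy, and the sources used here do not state how reads with several equally good positions were treated in these libraries. Values without them are therefore given beside the calls, the replicate check, width and position, the promoter and neighbour counts and the motif shares.

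The members were quiet between 0 h and 12 h and lower in both 48 h libraries, which is what the choice required. Relative to each peak's mean over the 0 h and 12 h libraries, the median member stood at 0.98 in 0 h R1, 1.01 in 0 h R2, 0.995 in 12 h R1 and 0.976 in 12 h R2. It stood at 0.507 in 48 h R1 and 0.593 in 48 h R2. The median eligible distal peak also fell, to 0.769 in 48 h R1 and 0.925 in 48 h R2. Replicate R1 was thus the lower of the 48 h libraries over distal peaks in general, and it was below R2 in 76.9% of members and 67.3% of eligible peaks.

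**Figure D1:**
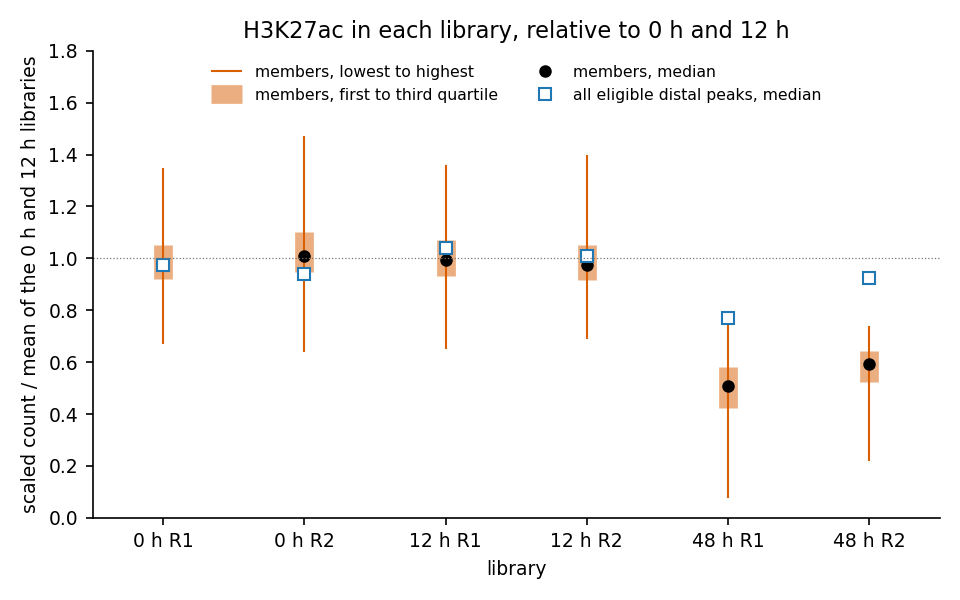
H3K27ac scaled counts of the 1132 members in each of the 6 libraries, each divided by the peak's mean over the 4 libraries at 0 h and 12 h (vertical axis, linear); thin lines run from the lowest to the highest member, thick bars from the first to the third quartile, black points are member medians and open squares the medians of all 28356 eligible distal peaks. The member medians are 0.507 and 0.593 in the 48 h libraries and within 0.976 to 1.01 in the other 4, and the eligible peaks are also lower in 48 h R1 than in 48 h R2.

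The depth of the fall varied among members. The log2 ratio of the 48 h mean to the mean over 0 h and 12 h ran from -2.05 to -0.43, with a median of -0.87 and quartiles of -1.04 and -0.73. In 339 members (29.9%) the 48 h signal was under 0.5 times the earlier level, and in 12 it was under 0.3 times. The 12 h mean was above the 0 h mean in 527 members and the median 12 h to 0 h ratio was 0.985, against 1.046 for eligible peaks. At the edge of the choice, the peaks nearest to Gm2310, Pgc and Tdrd3 were just inside with margins of 1.3, 1.3003 and 1.3012, and those nearest to Olfr46, Lipc and Smu1 were just outside with 1.2989, 1.2991 and 1.2992.

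The edgeR quasi-likelihood test over all merged peaks, adjusted by the Benjamini-Hochberg method at 0.05, used the same counts as the choice, so its calls only describe the members. It called 701 members (61.9%) lost at 48 h against 12 h, beside 15.4% of eligible distal peaks and 8.43% of all merged peaks. It called 721 (63.7%) lost at 48 h against 0 h, beside 10.3% of eligible and 5.45% of all peaks, and 569 (50.3%) in both. The 701 were 181 without 12 h R1, 146 without 12 h R2, 449 with DESeq2 and 842 without 48 h R2. The 721 were 273 without 0 h R1, 120 without 0 h R2, 316 with DESeq2 and 832 without 48 h R2. How many members passed thus rested on single libraries and on the tool. No member was called between 12 h and 0 h, where 16% of all peaks were called in either direction. The choice had bounded that ratio, and 1 member had an unadjusted p under 0.05 in edgeR, while DESeq2 called 0. Of members with the shared word 40 of 169 (23.7%) were called lost at 48 h against 12 h, and of the others 661 of 963 (68.6%). Against 0 h the shares were 65.7% and 63.3%. The median 12 h to 0 h ratio of the members with the word was 0.868, against 1.01 for the others. Among all 2216 eligible peaks that hold the word it was 0.753.

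A replicate that had not been used for the choice gave a reading of its own. When the same rule was applied to R1 alone it chose 4992 peaks, and 1428 of them (28.6%) met the 1.3-fold margin in R2, against 13.5% of the 27269 distal peaks with a mean of at least 20 reads in R1. Of those 4992 peaks, 63.7% had their lowest R2 value at 48 h, against 34.9%. The reverse choice in R2 gave 2027 peaks, of which 1323 (65.3%) met the margin in R1, against 34.1% of 29559 chosen by reads in R2, and 85.9% were lowest at 48 h, against 57.2%. The share that met the margin was thus higher when read in R1, both in the chosen peaks and in the peaks they were chosen from. In R1 distal signal as a whole was lower at 48 h. Without peaks that held the shared word, 25.9% of those chosen in R1 met the margin in R2, against 11.2%, and 66.6% of those chosen in R2 met it in R1, against 32.5%. The rule was met in each replicate alone by 866 peaks.

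The median member held more reads and was wider than the median eligible peak. Its raw count was 65.1 reads per library, against 50.3 for eligible peaks, and its width 1153.5 bp, against 972 bp. Without peaks that held the shared word the medians were 66.8 against 49 reads and 1276 against 991 bp. Over 5 equal classes of abundance, members made up 2.69% of eligible peaks in the weakest, then 3.18%, 4.04% and 4.6%, and 5.46% in the strongest. The choice itself used the read counts, so the differences in count and abundance only describe the members. Whether the difference in width follows from the counts was not tested. Peaks of at least 5 kb made up 6.98% of members (79 peaks), 3.3% of eligible peaks, 1.6% of the 561 distal peaks with the opposite pattern (stable to 12 h, then above all 4 earlier libraries by the same margin) and 0.702% of the 1139 distal peaks with all 12 h and 48 h values below 0 h by that margin. The last pair of groups are called gained only after 12 h and lost by 12 h below.

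By position, 660 members (58.3%) were intergenic, 425 (37.5%) intronic and 47 (4.15%) exonic by their centres. Eligible peaks were 53.4% intergenic and 42% intronic, and peaks gained only after 12 h were 38.7% intergenic and 58.5% intronic. Without the shared word 56.5% of members and 51.6% of eligible peaks were intergenic, and 68.6% of the members with it. The median member lay 23157.5 bp from the nearest protein-coding TSS, against 27955 bp for eligible peaks, and 71 members (6.27%) overlapped the 2 kb around the start of a long noncoding RNA, against 5.31%. Members occurred on every chromosome except Y, at 2.21% of eligible peaks on chromosome 16 to 5.49% on chromosome 9.

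The members with the highest mean scaled counts included those nearest to Epha2, Nanos3, Wasf2, Il17b, Gse1, Fblim1, Slc2a3, Ggnbp1 and Esrrb. The highest lay upstream of Epha2, an ephrin receptor, and had 4504 and 4668 scaled counts before induction, 5319 and 5187 after 12 h and 2992 and 3249 after 48 h. The member nearest to Slc2a3, which encodes the glucose transporter Glut3, had 2209 and 2178 before induction, 2148 and 2202 after 12 h and 1282 and 1616 after 48 h. In both peaks the 48 h libraries stood below the 4 earlier ones, and the log2 ratios were -0.66 and -0.59. The member at Ggnbp1, a gene known from spermatogenesis, fell more, from between 1885 and 2155 in the 4 earlier libraries to 893.8 and 1038.

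The deepest falls, among members with at least 40 raw reads, were found nearest to Tmem233 (-2.05 on the log2 scale), Tril (-1.91), Fam53a (-1.84), Aurkc (-1.82), Nptx2 (-1.81), Tle3 (-1.77), Ccdc171 (-1.75), Zc3h12a (-1.73), Ergic1 (-1.69) and Mafa (-1.68). The Tril member, whose sequence is given above, had 194 and 160.3 scaled counts before induction, 209.1 and 199.6 after 12 h and 43.3 and 58.47 after 48 h. The member 150 kb upstream of Tle3, a Groucho-family corepressor, had 77.99 and 72.17 before induction, 78.27 and 74.51 after 12 h and 17.76 and 26.66 after 48 h. The 48 h values of both peaks were low in R1 and R2 alike. Zc3h12a, which encodes the RNA-degrading enzyme Regnase-1, was nearest to 3 members, and their log2 ratios ran from -1.73 to -1.32.

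Some members lay close to others. Joined over gaps of up to 12.5 kb they formed 976 stretches, of which 860 held 1 member, 87 held 2 and 29 held 3 or more, so 272 members (24%) had another within that distance. Beside this, 4.72% of the 27224 eligible distal peaks that were no members had a member within it. Of the 561 peaks gained only after 12 h 19.6% had another of their own group that close, and of the 1139 peaks lost by 12 h 10.3%. The gained group is smaller than the members, which lowers such a share, so 19.6% and 24% are not directly comparable. Adjacent peaks can be parts of 1 acetylated domain. The largest stretch held 8 members over 27.6 kb at Epb41l1 (chr2:156424992-156452609), a gene for a protein that links membrane proteins to the cytoskeleton. Summed over its 8 members the scaled counts were 1813 and 1951 before induction, 1841 and 1989 after 12 h and 838.3 and 1064 after 48 h. The second, at Sik1 (chr17:31789121-31831524), a salt-inducible kinase, held 5 members that summed to 2571 and 2566 before induction, 2897 and 2718 after 12 h and 1091 and 1635 after 48 h. At both loci the 48 h sums were the lowest, with R1 below R2.

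Over 915 nearest genes, 42 were nearest to 3 or more members, 144 members in all. After Epb41l1 and Sik1, those with 4 were B4galt6, Ggnbp1, Gli2, Gm10324, Klf5, Lrrc74a, Mtf2, Nupl2, Sema4d, Sorl1 and Sox2. Among those with 3 were Nanog, Sall1, Tbx3, Tfap2c, Dusp5 and Trim71. None of the 144 members held the shared word, while the 169 members with it were spread over 165 nearest genes. Sall1, for example, was nearest to 26 eligible distal peaks, of which 3 were members, and Ntn1 to 3, all of them members.

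Genes of core and naive pluripotency were nearest to 32 members, at 16 of the 43 genes in the list. That was 2.83% of members, beside 1.16% of eligible distal peaks, 1.07% of peaks gained only after 12 h and 0.702% of peaks lost by 12 h. Put the other way, 9.7% of the 330 eligible peaks of the list were members, against 3.99% of all eligible peaks. Klf5 and Sox2 had 4 each, Nanog, Sall1 and Tbx3 had 3, Dppa3, Mycn, Nr5a2 and Sall4 had 2, and Esrrb, Jarid2, Klf4, Tcf7l1, Tcl1, Tfcp2l1 and Zfp281 had 1. Of these 32, only the farther Nr5a2 member, 390 kb from the TSS, held the shared word. Nearest genes are an assignment by distance alone, and no contact between peak and promoter was measured.

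Klf5 encodes a zinc-finger factor that sustains naive self-renewal. Its 4 members lay 10.9 to 39.5 kb downstream of its TSS, 1 in an intron, 1 in an exon and 2 beyond the gene. The strongest (chr14:99332568-99344713) had 1453 and 1438 scaled counts before induction, 1504 and 1538 after 12 h and 732.8 and 1092 after 48 h. The one at chr14:99322848-99327687 had 449.5 and 435.2 before induction, 401 and 462.7 after 12 h and 168.8 and 223.6 after 48 h. In both, 48 h R1 was the lower library. Of the 10 other eligible peaks nearest to Klf5, 9 had a lower fitted level at 48 h than at 12 h, and 1 was called lost. Most of these 10 were already lower at 12 h than at 0 h, with log2 changes down to -0.91, while the called one was higher by 0.3. Over all eligible distal peaks the median log2 change at 48 h against 12 h was -0.23, and 15.4% were called lost.

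Sox2, a partner of Oct4, had members on both sides of its TSS. Those 85.1 and 95.2 kb downstream lie on the near side of the Sox2 control region, a distal cluster of enhancers that drives Sox2 in embryonic stem cells. The nearer of these (chr3:34734033-34736883) had 296.6 and 316.3 scaled counts before induction, 353.8 and 342.2 after 12 h and 148.8 and 194.3 after 48 h. The farther one, whose Esrrb site is printed above, had 192.9 and 203.8 before induction, 196.2 and 248.4 after 12 h and 88.82 and 120.4 after 48 h. The member 14 kb downstream kept more, with 203.2 and 178.9 at 48 h against 269.9 to 286.3 earlier. Of 17 further eligible peaks nearest to Sox2, 5 were called lost at 48 h against 12 h and 14 had a lower fitted level. The strongest eligible peak nearest to Sox2, 14758 bp wide and centred 109767 bp downstream, was among these 5 and was no member. Its log2 change was 0.48 at 12 h against 0 h and -0.92 at 48 h against 12 h, so it was not shown to share the timing of the members.

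At Nanog, the homeodomain factor of naive pluripotency, the 3 members lay 12.7, 16.4 and 40.1 kb upstream. The 2 members nearest to Dppa3, a gene of the early embryo also known as Stella, lie between both genes. The strongest of these 5 (chr6:122660812-122665428) had 519.3 and 523.3 scaled counts before induction, 517.9 and 501.3 after 12 h and 235.4 and 274.3 after 48 h. The Nanog member with the Esrrb site had 83.12 and 95.52 before induction, 84.71 and 63.47 after 12 h and 37.75 and 45.57 after 48 h. None of the 6 other eligible peaks nearest to Nanog was called lost at 48 h against 12 h, and 3 of them had a lower fitted level.

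Among other regulators, the Esrrb member (chr12:86500120-86510577), in an intron of this orphan nuclear receptor gene, had 1690 and 1783 scaled counts before induction, 2095 and 2077 after 12 h and 824.9 and 1204 after 48 h. The intronic Tfcp2l1 member (chr1:118640405-118653072), at the gene of a grainyhead-type factor of the naive state, had 1547 and 1588 before induction, 1719 and 1651 after 12 h and 676.2 and 1047 after 48 h. Both fell in R1 and R2 and by more in R1. At Tbx3, a T-box factor, 3 of the 4 eligible peaks between 81.8 and 86.2 kb upstream were members, and the strongest of them went from between 80.95 and 97.57 to 37.75 and 38.69. The smallest fall of any member was found at Sall1 (-0.43), from between 907 and 935.1 to 693.9 and 675.9. The Tcf7l1 member fell by 1.77 on the log2 scale, to 5.551 and 10.32 from at most 29.44, and rests on few reads.

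**Figure D2:**
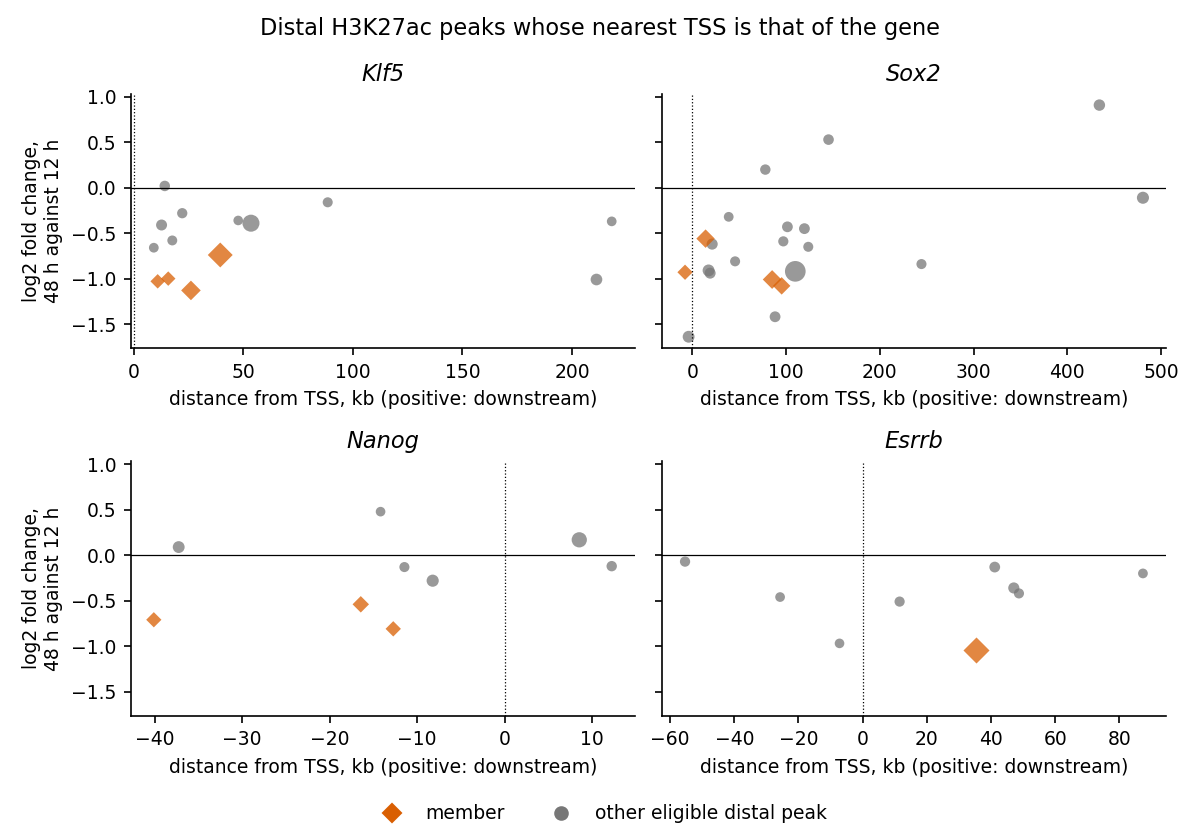
Each eligible distal peak whose nearest TSS is that of Klf5, Sox2, Nanog or Esrrb, by the distance of its centre from the TSS (horizontal axis, kb, positive downstream) and its edgeR log2 fold change at 48 h against 12 h (vertical axis); orange diamonds are members, grey circles other eligible peaks, and symbols are larger for peaks with more reads. The 4 Klf5 members and the single Esrrb member lie among peaks that are nearly all below 0, while the Nanog members lie beside peaks on both sides of 0.

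Signalling genes had fewer members. Nodal, activin and BMP genes had 6 (0.53% of members, 0.458% of eligible peaks), at Lefty1, Smad7, Nodal and Acvr2a. The 2 members upstream of Lefty1, a secreted Nodal antagonist, fell the most, the stronger from between 198.1 and 248.8 to 85.49 and 92.87 and the weaker from between 50.95 and 65.41 to 19.99 and 18.92. The 2 replicates of each were close at 48 h. The Nodal member, 8.1 kb upstream, fell less, from between 136.1 and 181.5 to 104.4 and 101.5, and the Acvr2a member, 1685 kb from its TSS, held the shared word.

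FGF and ERK genes had 6 members (0.53%, against 0.388% of eligible peaks), 3 at Dusp5, 2 at Spry4 and 1 at Dusp6, all of which encode feedback inhibitors of the pathway. The strongest Dusp5 member had 122.1 and 136.9 scaled counts before induction, 121.2 and 103.9 after 12 h and 43.3 and 51.59 after 48 h. The log2 ratios of the 3 Dusp5 members ran from -1.35 to -1.06. LIF and STAT genes had 2 members (0.177%, against 0.222% of eligible peaks), both upstream of the kinase gene Pim1, with log2 ratios of -0.93 and -0.91. Formative genes had 2 (0.177%, against 0.374%), both downstream of Myc and weak.

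The other lists held at most 3 members each. Wnt genes had 2 (0.177% of members, against 0.222% of eligible peaks), at Fzd7 and Tcf7l1. Adhesion and epithelial genes had 2 (0.177%, against 0.324%), at Cldn3 and Cldn4, and the list of mesoderm, endoderm and trophoblast regulators had 3. The last were 7.89% of the 38 eligible peaks of that list, against 3.99% of all eligible peaks, and all 3 lay at Tfap2c, which is also expressed in stem and germ cells. Notch genes had 0 of 67 eligible peaks. Neuronal genes had 3 (0.265% of members, beside 0.712% of eligible peaks and 1.96% of peaks gained only after 12 h), and 2 of these, at Pou3f3 and Wdfy3, held the shared word. None of the 9 eligible peaks at feeder fibroblast genes was a member. These lists and the peaks were not tested against each other.

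**Figure D3:**
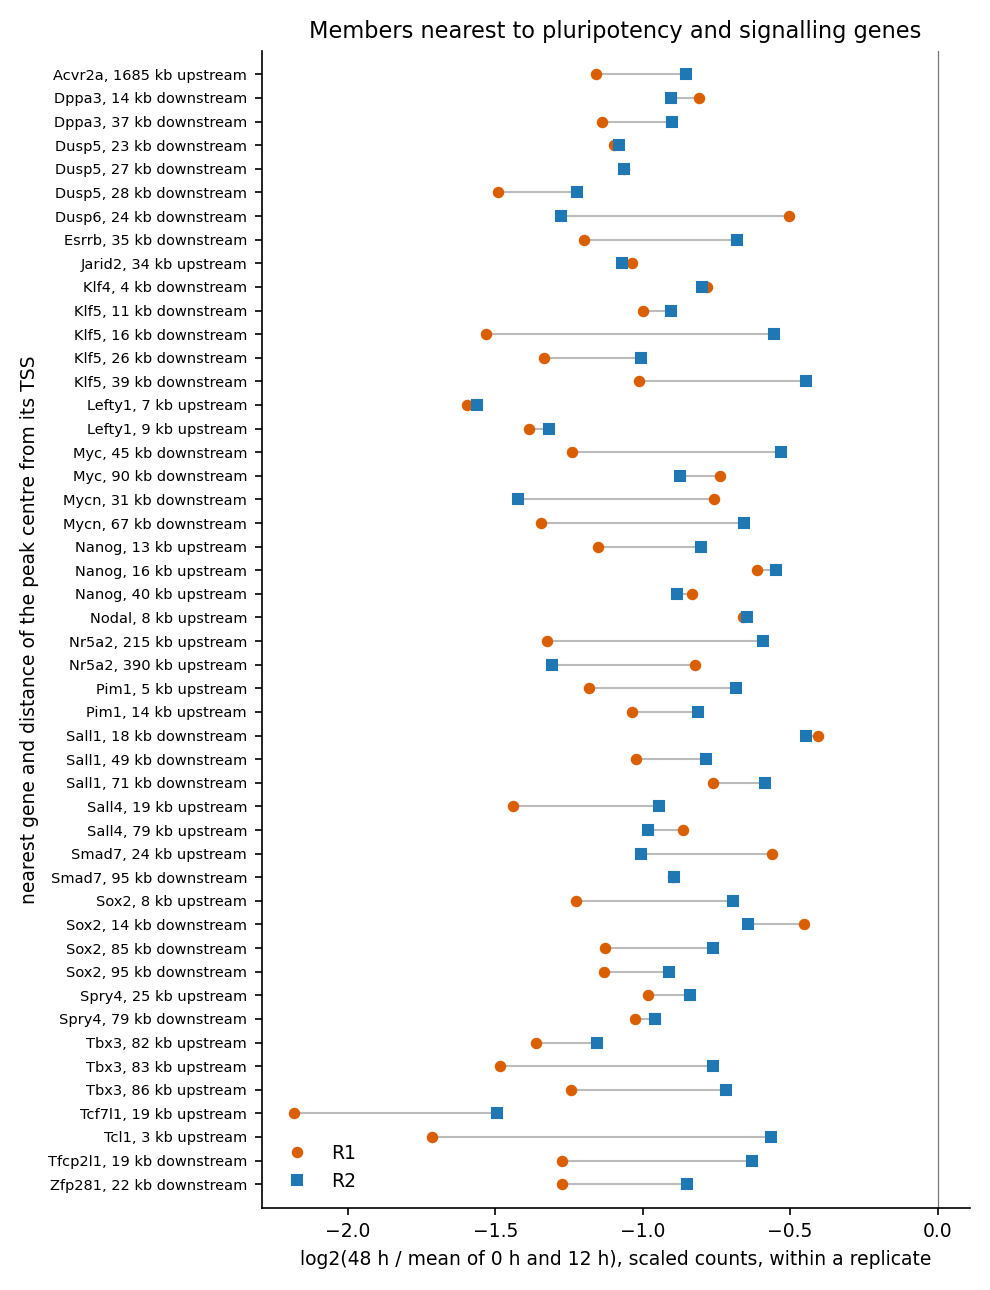
The members whose nearest gene is in the pluripotency, LIF, Nodal, FGF or formative list, labelled with the gene and the rounded distance of the peak centre from its TSS; the horizontal axis is the log2 ratio of 48 h to the mean of 0 h and 12 h in scaled counts within R1 (orange circles) and within R2 (blue squares). All points lie left of 0, as the choice required, and R1 lies left of R2 in most members, such as the Esrrb and Tfcp2l1 ones.

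The promoters of the nearest genes had not been used to choose the members. A promoter peak was found for 697 of the 915 nearest genes, 696 peaks in all. For each gene it was the promoter peak with the highest mean raw count. The shares over all promoter peaks include weaker ones, in which a change is harder to call. At 48 h against 12 h, edgeR called 47 of them lost (6.75%, against 2.61% of all promoter peaks) and 135 gained (19.4%, against 27.4%). Their median log2 change was 0.29, against 0.44 for all promoter peaks, both above 0. Against 0 h, 83 were lost (11.9%, against 2.88%), with a median of -0.10 against 0.06. All 47 belonged to genes nearest to members without the shared word, 47 of 622 (7.56%). The count of 47 was 12 without 12 h R1, 13 without 12 h R2 and 73 without 48 h R2.

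Among the 25 promoter peaks of pluripotency and signalling genes with a member, 5 were called lost at 48 h against 12 h and 1 gained. The Lefty1 promoter fell by 1.17 ± 0.19 on the log2 scale (edgeR, SE, adjusted p = 0.00027), with 328.4 and 278.1 scaled counts before induction, 394.6 and 333.9 after 12 h and 163.2 and 159.9 after 48 h. That of Nodal fell by 0.98 ± 0.15 (edgeR adjusted p = 0.00012), from 1260 and 1268 at 12 h to 634 and 644.9. That of Nr5a2, an orphan nuclear receptor, fell by 0.91 ± 0.17 (edgeR adjusted p = 0.00097), those of Tcl1 by 0.69 ± 0.21 (0.024) and Esrrb by 0.68 ± 0.14 (0.0021). The Esrrb peak is a domain of 36.4 kb that runs from the promoter into the gene and ends 408 bases before the Esrrb member, and the Tcl1 peak lies 59 bases from the Tcl1 member, so neither is a reading apart from its member. In these promoters both 48 h libraries were below all 4 earlier ones. That of Acvr2a rose by 0.76 ± 0.21 (edgeR adjusted p = 0.014).

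Several promoters did not follow the timing of their distal members. Klf5's promoter was already lower at 12 h than at 0 h (-0.74 ± 0.18, edgeR adjusted p = 0.0079), with 449.5 and 633.6 scaled counts before induction, 336.7 and 310.9 after 12 h and 283.1 and 301 after 48 h. The change from 12 h to 48 h was -0.15 ± 0.19 (edgeR adjusted p = 0.61). Pim1 and Tfcp2l1 showed the same order, with promoters lower by 0.70 ± 0.16 and 0.84 ± 0.29 at 12 h in log2 terms (edgeR adjusted p = 0.0037 and 0.049). Promoter peaks in general were also lower at 12 h than at 0 h. Their median log2 change was -0.38, and -0.37 over those of nearest genes. The Sox2 promoter, with 4 members around it, changed by -0.28 ± 0.13 from 12 h to 48 h (edgeR adjusted p = 0.13), and Nanog's by -0.23 ± 0.14 (0.24). Of the 40 promoter peaks of genes nearest to 3 or more members, 1 was called lost at 48 h against 12 h, that of Itpk1 (-0.91 ± 0.18, edgeR adjusted p = 0.0017), and 3 were gained. Over all promoter peaks 2.61% were lost and 27.4% gained in that contrast. The Itpk1 promoter peak ends at chr12:102709022 and an Itpk1 member begins at chr12:102709259, so it is not a reading apart from that member.

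**Figure D4:**
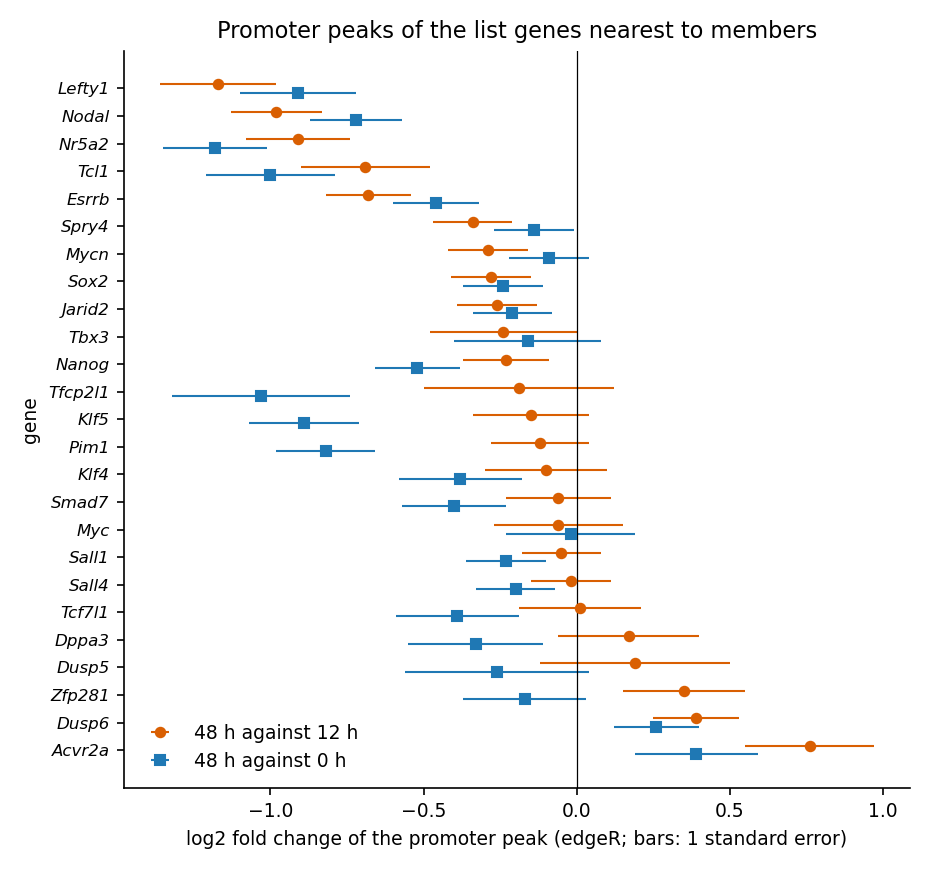
Promoter peaks of the 25 pluripotency and signalling genes nearest to members, ordered by the change from 12 h to 48 h; points are edgeR log2 fold changes at 48 h against 12 h (orange circles) and against 0 h (blue squares), with bars of 1 standard error, 2 libraries per time point. Lefty1, Nodal, Nr5a2, Tcl1 and Esrrb lie left of 0 in both comparisons, while Klf5, Pim1 and Tfcp2l1 lie far left only against 0 h.

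Over the whole pluripotency list, 41 promoter peaks were found, members or not, of which 15 were called lost and 3 gained at 48 h against 12 h, beside the shares of 2.61% and 27.4% over all promoter peaks. Their median log2 change was -0.28. In the Nodal list 6 of 29 were lost and 10 gained, in the FGF list 2 of 23 and 6, and in the neuronal list 1 of 32 and 18. The lists share genes with the members, which were chosen on the same libraries.

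Distal peaks near the members that were not members themselves were read next. Within 50 kb of a member lay 3100 other eligible distal peaks. At 48 h against 12 h edgeR called 515 of them lost (16.6%), against 13.1% of the 24124 farther away, and 92 gained (2.97%, against 6.86%). Within 10 kb, 244 of 1122 were lost (21.7%) and 17 gained (1.52%). The median log2 change was -0.40 within 10 kb, -0.27 within 50 kb and -0.19 farther away. Without peaks that held the shared word the shares lost were 16.7% within 50 kb and 14.2% farther away. The count of 515 was 182 without 12 h R1, 155 without 12 h R2 and 988 without 48 h R2. Adjacent merged peaks can be parts of 1 acetylated domain, and the peaks are not independent of each other.

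The letters around the centres differed between the groups of peaks. The Esrrb site CAAGGTCA was present in the central 300 bases of 56 members (4.95%, Wilson 95% interval 3.83 to 6.37%), in 2.52% of eligible distal peaks, in 1.76% of peaks lost by 12 h and in 0.357% of peaks gained only after 12 h. Over the whole peak it was present in 20.2% of members and 11.2% of eligible peaks, and members are wider. Within 3 classes of GC content with about equal numbers of eligible peaks, the shares in the central 300 bases were 4.67%, 6.94% and 2.9% of members, beside 2.79%, 3.42% and 1.36% of eligible peaks. The median log2 ratio of members with it was -0.93 and that of the others -0.87. None of the 169 members with the shared word held it, and without those peaks the shares were 5.82% of members and 2.74% of eligible peaks.

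E-boxes, the CANNTG sites of bHLH and zinc-finger factors, differed by their central bases. CAGATG, of the NeuroD1 type, was present in 15.5% of members, 19.5% of eligible peaks and 25% of peaks gained only after 12 h. Over the whole peak the order of the first pair turned, with 57.3% of members and 54.8% of eligible peaks, and members are wider. CACCTG, the site of Snai and Zeb repressors and of E proteins, was present in 38% of members (Wilson 95% interval 35.2 to 40.8%), 28.5% of eligible peaks, 15.9% of peaks gained only after 12 h and 41.1% of peaks lost by 12 h.

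Much of the CACCTG share came with the shared word. The repeat copies with that word held CACCTG in 99.4% of members and 99.6% of eligible peaks. Without them the share was 27.2% of members, 22.4% of eligible peaks, 15.9% of peaks gained only after 12 h, of which none held the word, and 22.7% of peaks lost by 12 h, of which 23.8% held it. For CAGATG the shares without the word were 18% of members and 20.3% of eligible peaks.

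**Figure D5:**
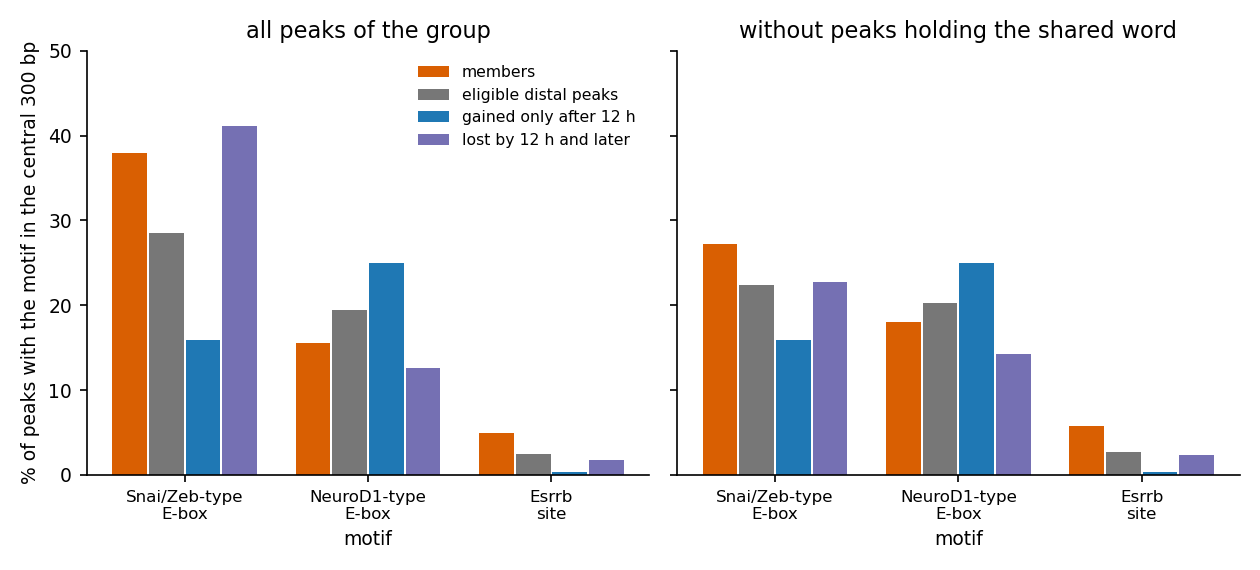
Share of peaks (vertical axis, %) with each motif in the central 300 bp, on either strand, in members, all eligible distal peaks and the groups gained only after 12 h and lost by 12 h and later; the left panel takes all peaks of a group and the right panel leaves out peaks that hold the shared 16-base word. The Snai/Zeb-type E-box falls from 38% to 27.2% of members between the panels, while the Esrrb site stays the most frequent in members, at 4.95% and 5.82%.

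The AP-1 site TGANTCA was present in 11% of members and 9.26% of eligible peaks, and the Klf box GGGTGTGG in 3.71% and 3.17%. The octamer ATGCAAAT of Oct4 was present in 1.06% and 1.47%, the Sox core ACAATGG in 2.83% and 3.89%, and the Gata site AGATAA in 8.92% and 12.2%. The direct repeat of Tfcp2l1 was present in 4.15% and 3.81%. Without the shared word the shares were 13% and 10% for AP-1, 4.36% and 3.44% for the Klf box, 3.32% and 4.22% for the Sox core, 10.4% and 12.7% for Gata and 4.88% and 4.06% for the Tfcp2l1 repeat. A match says that the letters occur in the window, and binding was not measured here.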

How the data were processed

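H3K27ac ChIP-seq of A2Lox cells was analysed in 6 libraries, 2 at each of 0 h, 12 h and 48 h, grouped by their labels. The Input library was not used here. The authors checked reads with FastQC, aligned them to mm10 with Bowtie2 in local mode, handled them with SAMtools 0.1.19, called peaks with MACS2 against Input, merged them over all samples and deposited raw read counts per merged peak, made with QuasR. The counts are unscaled, so here each library was scaled by its total to the mean total. The members, gene lists and motifs were chosen with earlier results of these data known.

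Peaks were annotated with protein-coding transcripts of GENCODE M21 (basic set) on GRCm38 with bedtools 2.31.1, and sequences were read with pysam 0.24.0 (Python 3.11.15). Sequences of chromosome 18 are not shown here. Contrasts between time points were tested over all 66841 peaks by the quasi-likelihood F-test of edgeR 4.0.16 (run under R 4.3.3; library totals as offset, 1 model of 6 libraries with 3 residual degrees of freedom, Benjamini-Hochberg at 0.05). The biological coefficient of variation was 14.9%. Alternatives were TMM factors, DESeq2 1.42.0, a filter of 10 counts in 2 libraries, a replicate block, an offset on GC content (lowess, span 0.3), each library left out and a minimum change of 2-fold.

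Named members were the 10 with the highest mean count, the 10 with the largest fall among those with at least 40 raw reads, those nearest to genes of the 11 lists (by name for pluripotency, LIF, Nodal, FGF and formative genes), and genes nearest to at least 3 members. Sequences of 300 bases were taken for 3 of the largest falls and 3 list members, of which 4 are shown. The search for words of 16 bases and the windows of 40 bases were added after the values were seen. Motifs (21) were counted on both strands, and intervals on their shares cover counting error only. Some named peaks and motifs are not reported here. Figures were drawn with matplotlib 3.10.9.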

Additional observations from a re-analysis of the deposited data

How the results depend on the processing

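The 1132 members were 1051 with TMM factors and 1025 with DESeq2 size factors. With an offset on GC content the rule gave 1480 peaks, of which 772 were members (68.2% of the members and 52.2% of the 1480), so which peaks are chosen depends on that offset. The count was 1754 with a margin of 1.2-fold, 437 with 1.5-fold and 584 with a band from 0.9 times the 0 h mean, since these settings are looser or stricter by construction. It was 4992 with R1 alone and 2027 with R2 alone. Leaving out 1 library gave 1192 to 3435 peaks, the most without 48 h R2, which leaves the lower 48 h library to decide.

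Peaks called lost by edgeR at 48 h against 12 h numbered 5634 in all, 3073 with DESeq2, 3213 with a 2-fold minimum, and 1062 (without 12 h R2) to 11596 (without 48 h R2) with 1 library left out. At 48 h against 0 h they numbered 3642, 1030 with DESeq2, 1488 with a 2-fold minimum, and 325 (without 0 h R2) to 7470 (without 48 h R2). At 12 h against 0 h they numbered 4028, 2637 with TMM factors, 1234 with DESeq2, 1156 with a 2-fold minimum, and 100 (without 0 h R2) to 10593 (without 48 h R2). In these fits the lone library of a time point is assumed to vary like the others. The causes were not tested.

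The 47 promoter peaks of nearest genes called lost were 77 with the GC offset, 17 with a 2-fold minimum and 12 to 73 with 1 library left out. The 515 neighbouring distal peaks were 271 with a 2-fold minimum, 244 within 10 kb, which holds fewer peaks, and 155 to 988 with 1 library left out. The 28.6% of peaks chosen in R1 that met the margin in R2 became 37.1% with the GC offset, against 16.3% of the peaks they were chosen from. Over 500 bases the Esrrb site was found in 6.98% of members and 4.09% of eligible peaks, CACCTG in 48.8% and 39.1%, and CAGATG in 24.1% and 30.5%. Over the whole peak these were 20.2% and 11.2%, 74.8% and 62.1%, and 57.3% and 54.8%, so members went from below to above eligible peaks in CAGATG. Without peaks that held the shared word, an alternative chosen after seeing the data, CACCTG was found in 27.2% of members and CAGATG in 18%, and 25.9% of peaks chosen in R1 met the margin in R2.

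By the labels, R1 and R2 share only a number across time points, and whether they are paired is not stated. The correlation of their R1 to R2 differences over peaks was -0.04 between 0 h and 12 h, -0.09 between 0 h and 48 h and 0.11 between 12 h and 48 h. With a replicate block 5930, 3753 and 4023 peaks were lost in the contrasts above, with 47 promoter and 531 neighbouring peaks. Members called between 12 h and 0 h, 0 in the fit reported, numbered 26 with the GC offset, 20 without 48 h R1 and 19 without 48 h R2. With 2 libraries per time point and few reads in weak peaks, small changes were not detectable.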

Other observations

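A second 16-base word, AGAGTCTTGCCCAACA, was the most common among the members that did not hold the first, and was present in 40 members (3.53%), in 4.02% of eligible distal peaks, in 10.3% of peaks lost by 12 h and in none of the peaks gained only after 12 h. It occurs 7474 times in the mm10 chromosomes. Peaks with the first word were members in 7.63% of cases and those with the second in 3.51%, beside 3.99% of all eligible peaks. Over all eligible distal peaks, edgeR called 1050 of the 2216 with the first word lost at 48 h against 0 h (47.4%), and 1866 of the 26140 without it (7.14%). At 48 h against 12 h it called 57 of them lost (2.57%), and 4319 of those without the word (16.5%). The part of read assignment between repeat copies in these values was not tested.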
